A study of Mus musculus with 8 samples.

Results

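The genes of chemokines and chemokine receptors were examined in the epididymal fat (eWAT, a visceral white fat depot) of 8 obese male mice. The members were the protein-coding genes whose symbol follows the chemokine or chemokine receptor pattern (Ccl, Cxcl, Cx3cl1, Xcl1, Ccr, Cxcr, Xcr1, Ackr and Ccrl2). This gave 59 genes of the 55487 gene identifiers in the tables: 37 ligands, 17 signalling receptors and 5 atypical receptors. Cxcl11 also matched by symbol, is a polymorphic pseudogene in GENCODE M21, and was left out. The 4 AKO mice carried 2 floxed copies of Slc16a1 together with the AP2-Cre transgene, and their labels give the genotype as Slc16a1 -/-. The 4 WT mice carried the same floxed copies without Cre. Both groups were of the C57BL/6 strain and were made obese by a high-fat diet (HFD), and no age is given for them. AP2-Cre is driven by the promoter of Fabp4 (aP2), a gene of adipocytes that is also known to be active in some macrophages and endothelial cells.

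Values are TPM (a share of all transcripts, corrected for transcript length), summed over the rows of each gene. Read depth is not kept in TPM and is unknown. Between 13968 and 14884 genes reached 1 TPM in each library. Slc16a1, the gene to be deleted, encodes the lactate and ketone body carrier MCT1. It stood at 22.4, 21.5, 27.1 and 25.03 TPM in AKO mice 3, 8, 9 and 11, against 23.4, 28.5, 15.7 and 17.6 TPM in WT mice 2, 3, 4 and 5. Values per mouse are in this order throughout. The groups overlap and the total was not lower in the mice labelled AKO (exact permutation p = 0.371), so it does not check the labels, and AKO and WT below are the groups as labelled. The adipocyte markers Adipoq, Plin1, Cidec, Lep, Lipe and Fabp4 summed to 27887 to 38147 TPM in AKO mice and 26820.4 to 39572 TPM in WT mice, with none at 0. Fabp4 made most of this sum, and of the 6 markers 5 had a negative log2 change, with 0 past the threshold and 1 at an unadjusted p below 0.05. Over all genes tested, 4.75% were at such a p and 53.8% had a positive log2 change. Of 14172 genes tested with limma, 4 passed an FDR of 0.05 (1 without AKO mouse 3, and 2 without AKO mouse 11 or without WT mouse 2).

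Chemokines are small secreted proteins, named for the spacing of their first cysteines, that draw leukocytes along gradients through G-protein-coupled receptors. Most bind more than one receptor, and the atypical receptors take chemokines up or hold them without driving migration. In obese visceral fat, Ccl2 and its receptor Ccr2 are best known for bringing in blood monocytes, which become the macrophages that gather around dying adipocytes. Many inflammatory chemokine genes are induced through NF-kB, while Cxcl12 and Ccl21 are made steadily by stromal and lymphatic cells.

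Promoters are shown for 2 pairs of neighbouring genes that differ in level in this tissue. Ccl6 and Ccl9 on chromosome 11 were the most abundant members, and Cxcl1 and Cxcl2 on chromosome 5 were among the lower tested ligands. The sequences are from RefSeq (GRCm38.p6, 250 bases before to 50 bases after the start, written 5′ to 3′ on the gene's strand). Capitals mark matches on either strand to the letters GGNNTTTCC, an NF-kB type motif, or CAGGAAG, the core of a site for ETS factors. No match to one overlapped a match to the other in these 4 promoters.
Ccl6 promoter, chr11:83593038-83593337, minus strand: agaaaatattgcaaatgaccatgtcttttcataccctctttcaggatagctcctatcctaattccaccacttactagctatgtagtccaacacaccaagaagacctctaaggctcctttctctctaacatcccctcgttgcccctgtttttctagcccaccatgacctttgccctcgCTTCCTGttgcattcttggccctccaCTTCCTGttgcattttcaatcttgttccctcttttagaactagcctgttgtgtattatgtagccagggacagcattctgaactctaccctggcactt
Ccl9 promoter, chr11:83578587-83578886, minus strand: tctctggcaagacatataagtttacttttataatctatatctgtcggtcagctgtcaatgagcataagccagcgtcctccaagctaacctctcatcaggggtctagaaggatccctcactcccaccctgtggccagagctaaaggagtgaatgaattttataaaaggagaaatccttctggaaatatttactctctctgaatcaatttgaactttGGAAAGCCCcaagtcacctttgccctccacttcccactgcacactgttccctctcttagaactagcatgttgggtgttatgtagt
Cxcl1 promoter, chr5:90890995-90891294, plus strand: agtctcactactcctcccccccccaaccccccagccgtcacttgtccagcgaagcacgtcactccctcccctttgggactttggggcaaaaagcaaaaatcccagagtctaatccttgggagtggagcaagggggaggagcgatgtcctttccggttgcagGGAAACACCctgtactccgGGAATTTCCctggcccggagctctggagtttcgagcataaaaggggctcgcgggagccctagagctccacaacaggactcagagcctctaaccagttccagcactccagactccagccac
Cxcl2 promoter, chr5:90903649-90903948, plus strand: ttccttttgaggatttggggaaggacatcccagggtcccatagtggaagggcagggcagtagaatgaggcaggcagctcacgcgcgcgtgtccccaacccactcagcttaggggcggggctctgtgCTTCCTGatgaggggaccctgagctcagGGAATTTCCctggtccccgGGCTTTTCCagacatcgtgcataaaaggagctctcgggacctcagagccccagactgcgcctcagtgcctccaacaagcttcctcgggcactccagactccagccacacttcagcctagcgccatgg
The Ccl6 promoter holds 2 matches to the ETS letters and 0 to the NF-kB letters, and the Ccl9 promoter holds 1 NF-kB match. The Cxcl1 promoter holds 2 NF-kB matches, and the Cxcl2 promoter holds 2 NF-kB matches and 1 ETS match. Among the 45 members with an entry in the promoter table, 10 (22.2%) held the NF-kB letters, against 6.62% of all 27025 genes with an entry. They were the ligand genes Ccl9, Ccl20, Cxcl1, Cxcl2, Cxcl3, Cxcl9 and Cxcl10 and the receptor genes Ackr4, Ccr3 and Ccrl2. For the ETS letters the figures were 13 of 45 members (28.9%) and 14.8% of all genes. The entries missing from the table include Ccl2, Ccl5, Ccl7 and Ccl11. These matches are descriptions of letters, and binding was not measured.

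Ccl6, Ccl9, Cxcl12 and Ccl11 held 69.5% to 75.9% of the summed ligand TPM in AKO mice and 68.0% to 73.8% in WT mice. Ccl6 and Ccl9, CC chemokines of macrophages that act on Ccr1, were the most abundant. Ccl6 stood at 481, 336, 383 and 285 TPM in AKO mice 3, 8, 9 and 11, against 362, 482, 231 and 401 TPM in WT mice 2, 3, 4 and 5. Ccl9 stood at 453, 248, 338 and 254 TPM in the AKO mice, against 271, 367, 122 and 238 TPM in the WT mice. Ccl6 exceeded Ccl9 in 8 of 8 mice, and Ccl9 exceeded the next ligand in 8 of 8. WT mouse 4 was lowest for both genes. Together these 2 genes made up 47.4% to 57.6% of the summed ligand TPM in AKO mice and 38.8% to 54.9% in WT mice. The summed ligand TPM itself was 1308 ± 221 in AKO and 1246 ± 289 in WT (SD, n = 4 each), a difference smaller than the spread between mice of either group.

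Cxcl12, the stromal ligand of Cxcr4, and Ccl11, the eotaxin that attracts eosinophils through Ccr3, came next and were the steadiest of the abundant ligands. Cxcl12 stood at 152, 119, 126 and 129.9 TPM in the AKO mice, against 107, 169, 105 and 151 TPM in the WT mice. Ccl11 stood at 145, 154, 110.3 and 120.5 TPM in the AKO mice, against 111, 109, 162 and 125 TPM in the WT mice. The highest mouse had 1.61 times the lowest for Cxcl12 and 1.49 times for Ccl11, and Cxcl12 was above Ccl11 in 5 of 8 mice, so their order is not fixed. Cxcl12 is spread over 4 rows of the tables, and the rows carry no transcript name. Its second row in table order held 57.0 to 96.8 TPM in AKO mice and 49.05 to 114.2 TPM in WT mice, and its first row ran from 21.0 to 37.7 TPM over the 8 mice. WT mouse 3 was highest in the second row and AKO mouse 8 in the first.

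The monocyte-attracting ligands varied more from mouse to mouse. Ccl2 stood at 96.6, 25.96, 55.6 and 59.4 TPM in the AKO mice, against 46.9, 129, 34.5 and 71.5 TPM in the WT mice. Its gene neighbour Ccl7, which also acts on Ccr2, ranged over 17.3 to 54.7 TPM. WT mouse 3 and AKO mouse 3 were the 2 highest for both genes, and AKO mouse 8 was lowest for both. Ccl12, the third Ccr2 ligand of the mouse, was far lower at 2.76 to 6.07 TPM. Ccl8, which in mice acts on Ccr8, stood at 64.2, 56.7, 65.6 and 68.5 TPM in the AKO mice, against 79.7, 85.4, 47.9 and 144 TPM in the WT mice. All 4 AKO mice lay close together for Ccl8, inside the WT range, and WT mouse 5 was highest.

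Among the other CC ligands, Ccl5, a product of T and natural killer (NK) cells, stood at 29.8, 80.5, 44.7 and 26.2 TPM in the AKO mice, against 31.6, 23.2, 32.8 and 26.2 TPM in the WT mice. AKO mouse 8 was the highest, AKO mouse 9 also lay above all WT mice, and AKO mice 3 and 11 were within the WT range. Ccl3 and Ccl4, the macrophage inflammatory proteins, were at 1.1 to 9.35 TPM and 1.28 to 4.46 TPM over the 8 mice. Ccl24, the second eotaxin found, was at 5.55 to 22.6 TPM, the dendritic cell product Ccl22 at 0.69 to 3.01 TPM, and Ccl25, the ligand of Ccr9, at 3.89 to 7.26 TPM. Ccl19 and Ccl21a, which call Ccr7-bearing cells to lymphoid tissue, were at 2.78 to 10.8 TPM and 6.83 to 45.8 TPM. Ccl21a had the widest interval of all tested members in the comparison below. All of the longest Ccl21a transcript in GENCODE M21, and 88.9% of that of Ccl19, lies in stretches of at least 95% identity with other genes, so these 2 levels are uncertain. The same holds for Ccl27a (8.26 to 23.1 TPM, 19 rows, 100% shared), which overlaps Il11ra1 on the opposite strand.

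Of the CXC ligands below Cxcl12, the membrane-bound Cxcl16, ligand of Cxcr6, was at 10.6 to 32.1 TPM. It was above Cxcl9 in 4 of 8 mice, so their order is not fixed. The interferon-induced Cxcl9 and Cxcl10, both ligands of Cxcr3, were at 11.6 to 22.8 TPM and 3.85 to 7.21 TPM. Cxcl14, a chemokine of resting tissues, was at 5.26 to 20.3 TPM. The neutrophil-attracting Cxcl1 and Cxcl2 were at 2.27 to 6.55 TPM and 0.87 to 4.24 TPM. Their receptor gene Cxcr2 had a mean of 0.129 TPM. Cx3cl1 (fractalkine) was at 2.2 to 4.45 TPM and Xcl1 (lymphotactin), which acts on the Xcr1 of cross-presenting dendritic cells, at 0.50 to 3.65 TPM.

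**Figure D1:**
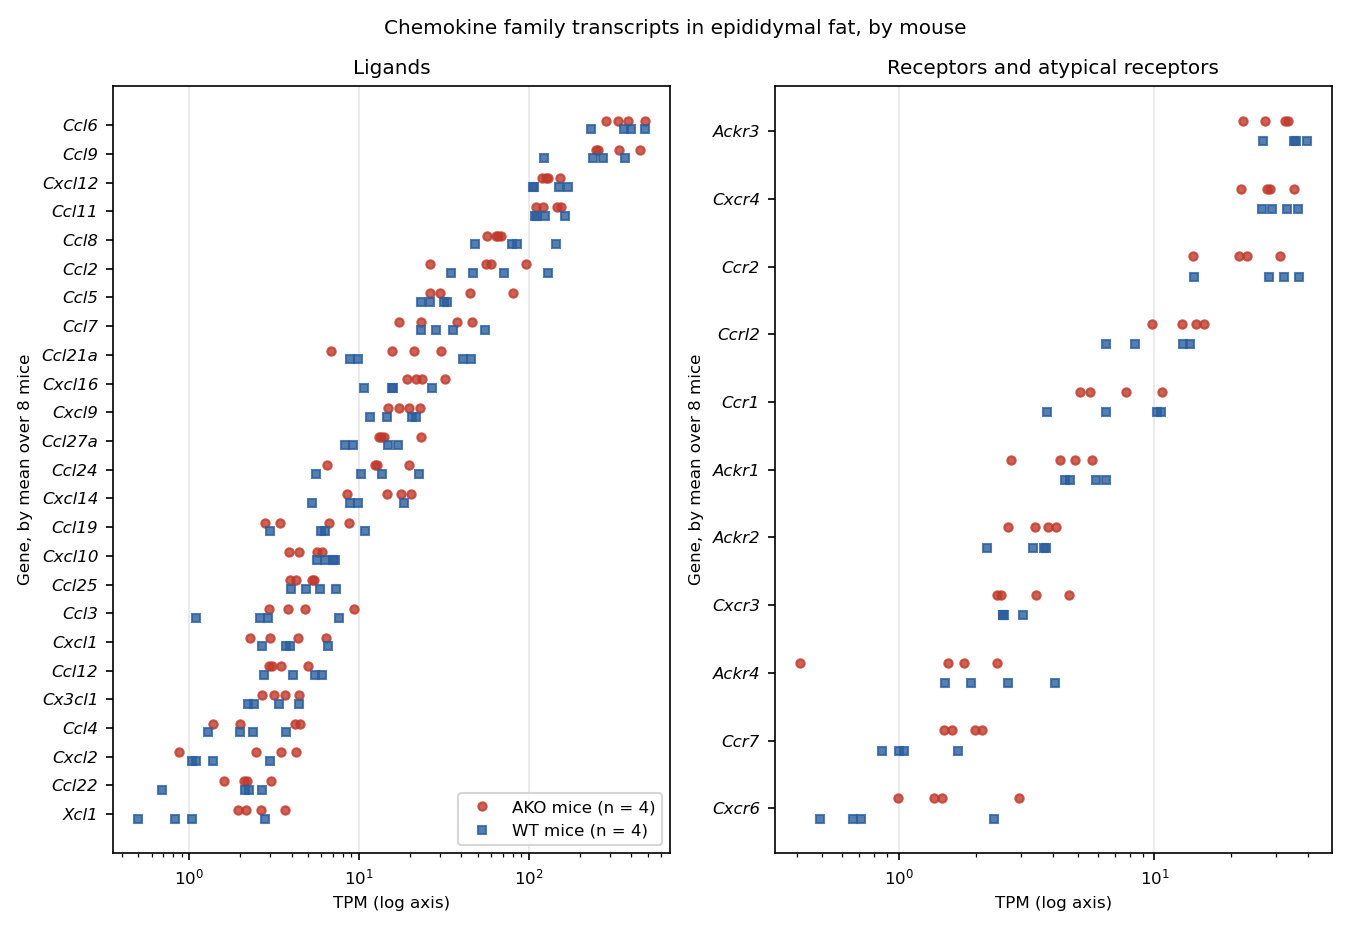
TPM on a log axis for 36 tested members, with AKO mice as red circles above WT mice as blue squares for each gene (4 mice per group, 1 point per mouse). Ccl6 lies between 231 and 482 TPM at the top of the ligands, Ackr3 and Cxcr4 between 21.9 and 39.4 TPM at the top of the receptors, and the 2 groups overlap for each gene shown.

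Receptor transcripts were fewer than ligand transcripts. Their sum was 145 ± 18.8 TPM in AKO and 147 ± 16.2 TPM in WT (SD, n = 4 each). Cxcr4, the Cxcl12 receptor of leukocytes and many other cells, stood at 27.5, 28.2, 35.2 and 21.9 TPM in the AKO mice, against 26.4, 33.02, 28.9 and 36.6 TPM in the WT mice. Ccr2, the receptor of inflammatory monocytes, stood at 31.0, 23.1, 14.2 and 21.3 TPM in the AKO mice, against 14.2, 27.98, 32.1 and 36.9 TPM in the WT mice. WT mouse 5 was highest for both, and the groups overlap. Cxcr4 was above Ccr2 in 5 of 8 mice, so their order is not fixed. Ccr1, the receptor for Ccl6 and Ccl9, was at only 3.79 to 10.7 TPM, although Ccl3, Ccl5, Ccl6, Ccl7 and Ccl9, which act on it, summed to 410.4 to 1014 TPM. Lymphocyte receptors were lower still, with Cxcr3 at 2.43 to 4.64 TPM, Ccr7 at 0.86 to 2.12 TPM and Cxcr6 at 0.49 to 2.95 TPM.

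All 5 atypical receptors were expressed. Ackr3 (CXCR7), which takes up Cxcl12, was the most abundant receptor of either kind at 32.4, 33.2, 22.3 and 27.2 TPM in the AKO mice, against 35.3, 26.5, 35.7 and 39.4 TPM in the WT mice. It exceeded Cxcr4 in 6 of 8 mice. Ccrl2, which binds chemerin without signalling, stood at 12.8, 15.7, 14.5 and 9.75 TPM in the AKO mice, against 12.9, 13.8, 6.46 and 8.38 TPM in the WT mice. Ackr1 (DARC), the chemokine-binding protein of venules, stood at 4.87, 5.72, 4.26 and 2.74 TPM in the AKO mice, against 6.47, 4.47, 4.66 and 5.92 TPM in the WT mice. AKO mouse 11 was lowest for Ackr1. Ackr2 (D6), a scavenger of inflammatory CC chemokines, stood at 3.82, 4.13, 2.68 and 3.42 TPM in the AKO mice, against 3.34, 2.22, 3.68 and 3.76 TPM in the WT mice. Ackr4, which removes Ccl19, Ccl21 and Ccl25, stood at 2.43, 1.79, 0.41 and 1.55 TPM in the AKO mice, against 1.91, 1.51, 2.68 and 4.09 TPM in the WT mice. WT mouse 5 was highest and AKO mouse 9 lowest for Ackr4, and the groups overlap for each of the 5.

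The other 22 members did not reach 1 TPM in at least 4 mice and were not tested. Of these, 18 had a value above 0 in at least 1 mouse, and Ccl20, Ccl26, Ccl27b and Cxcl15 were listed at 0 in all 8, which in tables without counts can be a failed estimate. Cxcl13, the B cell chemokine, reached 4.43 TPM in AKO mouse 8 and 3.30 TPM in WT mouse 3 and was at or below 1.05 TPM in the other 6 mice. Its receptor gene Cxcr5 was at 0.18 to 0.75 TPM. Ccl17 was at 0.20 to 1.43 TPM, Ccr3, the eosinophil receptor for Ccl11 and Ccl24, at 0.31 to 1.93 TPM, Ccr10 at 0.38 to 1.11 TPM, Xcr1 at 0.32 to 0.93 TPM and Ccl28 at 0.15 to 0.97 TPM. Ccr4, Ccr6, Ccr8, Ccr9, Cxcr1, Cxcr2, Ccl1, Cxcl3, Cxcl5 and Cxcl17 each stayed at or below 0.380 TPM in each mouse. Ccl21b was listed at 12.14 TPM in WT mouse 3 and at 0 in the other 7 mice. The gene Gm10591, which is no member by its symbol, had the same 12.14 TPM in that mouse and 0 in the others.

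Single mice stood out across many members. WT mouse 4 held the lowest value for 13 of the 37 tested members (35.1%), Ccl6, Ccl9, Ccl3, Ccr1, Ccrl2 and Cxcl16 among them, against 23.1% of all genes tested. AKO mouse 3 was lowest for 0 of 37, against 7.53% of all genes. AKO mouse 8 was highest for 9 of 37 (24.3%), against 8.26% of all genes, and these included Ccl5, Cxcr3, Cxcr6, Ccr7 and Xcl1. The same mouse had the highest summed TPM of the 8 T cell markers, at 40.3 against 17.9 to 22.6 in the other AKO mice and 15.5 to 24.6 in the WT mice. Cd4 was highest in AKO mouse 3 (2.92 TPM) and Trac in WT mouse 4 (6.90 TPM), and the other T cell markers in AKO mouse 8. AKO mouse 8 also had the highest sum of the 4 NK cell markers, at 26.3 against 10.5 to 14.7 in the other AKO mice and 8.8 to 20.5 in the WT mice. In these pieces of whole tissue, fewer cells of a type and less RNA per cell cannot be told apart.

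**Figure D2:**
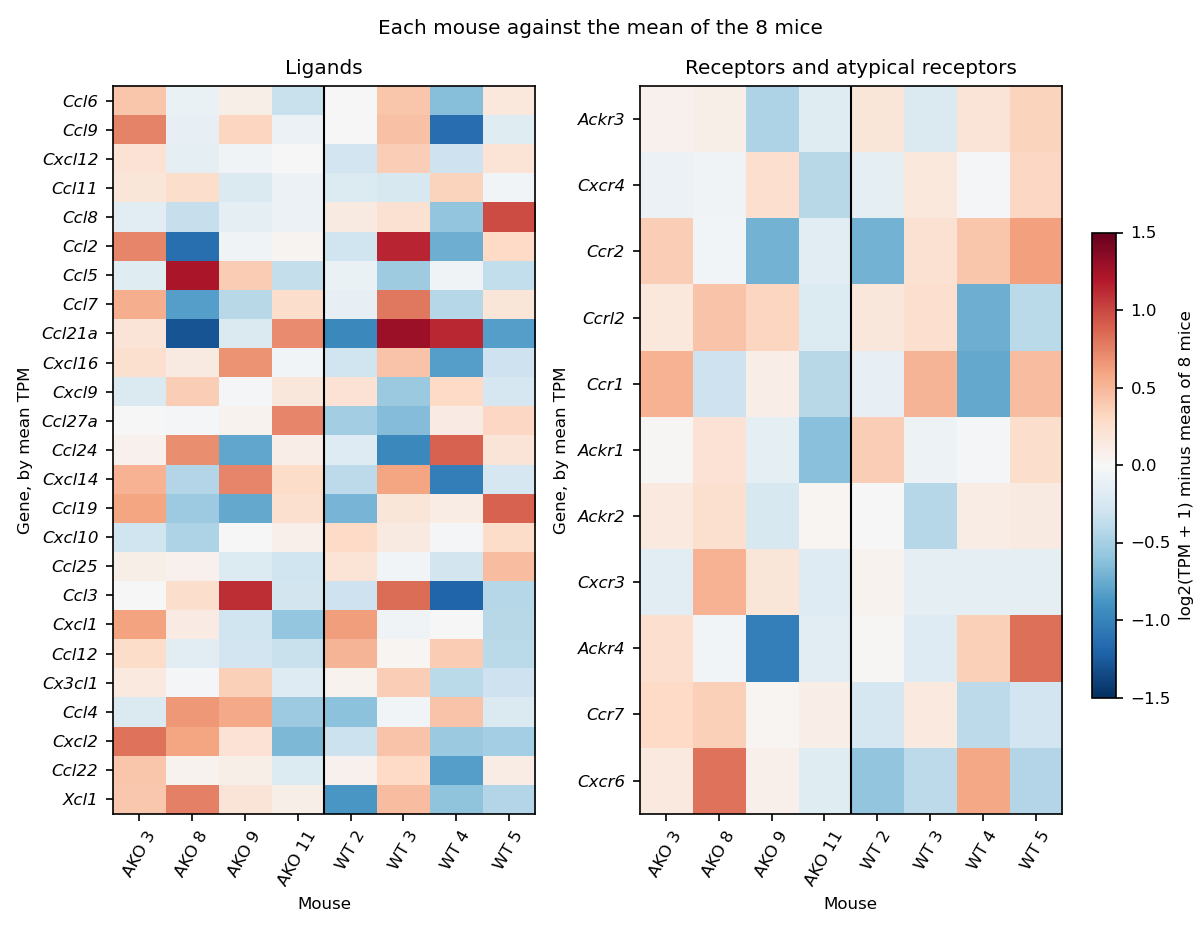
Each cell is log2(TPM + 1) of 1 mouse minus the mean of the 8 mice for that gene (red higher, blue lower), for 25 tested ligands and 11 tested receptors, AKO mice left of the line and WT mice right of it. The WT mouse 4 column is blue for Ccl9, Ccl3 and Ccr1, and the AKO mouse 8 column is red for Ccl5, Cxcr6 and Xcl1.

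Against WT, the AKO fat pads showed no chemokine or receptor gene that passed the test. By limma, 0 of the 37 members tested were below an FDR of 0.05, where 0.0282% of all 14172 genes were. The smallest FDR among members was 0.831. At an unadjusted p below 0.05 there were 3 members, Xcl1, Ccr7 and Cxcl10, where 4.75% of all genes were that low. The log2 change was positive for 22 of 37 members, against 53.8% of all genes, and its median was 0.071 over the members and 0.015 over all genes tested (AKO minus WT of mean log2(TPM + 1), a scale that understates the change of low genes). Medians were 0.071 for the 25 ligands, 0.18 for the 7 signalling receptors and -0.25 for the 5 atypical receptors. For 0 of 37 members did the AKO and WT mice fall into ranges that do not overlap, where 2.44% of all genes did.

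**Figure D3:**
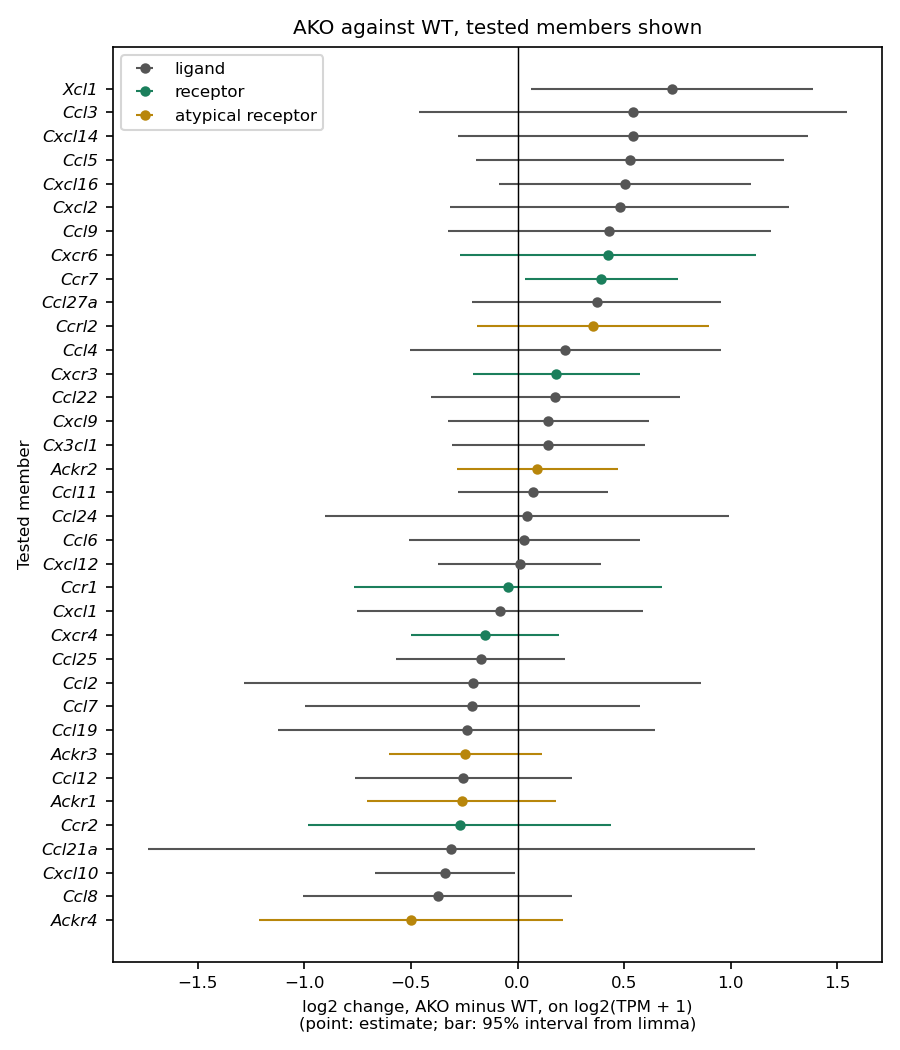
Log2 change of AKO minus WT for 36 tested members, with 95% intervals from limma (4 mice per group). Points run from 0.73 for Xcl1 to -0.498 for Ackr4. Xcl1 and Ccr7 have intervals wholly above 0 and Cxcl10 one wholly below 0 before adjustment over genes.

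The intervals say how large a difference could have been missed. They lay within 1 of 0 on the log2(TPM + 1) scale for 23 members and reached beyond it for 14. That scale understates the change of low genes, so for members at a few TPM the missed change in TPM can be larger. The narrowest interval belonged to Cxcl10 (0.33 on each side) and the widest to Ccl21a (1.42 on each side), and the median was 0.62. Ccl9 averaged 323 ± 95.9 TPM in AKO and 249.7 ± 101 TPM in WT (SD, n = 4 each), with a log2 change of 0.43 (95% interval -0.33 to 1.19, limma FDR = 0.831). Its log2 change was 0.12 without WT mouse 4, 0.25 without AKO mouse 3 and 0.65 without WT mouse 3. For the other three of the 4 most abundant members the estimates were near 0. Ccl6 averaged 371 ± 83.6 TPM in AKO and 369 ± 105 TPM in WT (SD, n = 4 each), with a log2 change of 0.031 (95% interval -0.51 to 0.57, limma FDR = 0.982). Cxcl12 averaged 132 ± 14.4 TPM in AKO and 133 ± 32.1 TPM in WT (SD, n = 4 each), with a log2 change of 0.010 (95% interval -0.37 to 0.39, limma FDR = 0.992), its log2 change having the opposite sign to the difference of the TPM means. Ccl11 averaged 132 ± 20.3 TPM in AKO and 127 ± 24.7 TPM in WT (SD, n = 4 each), with a log2 change of 0.071 (95% interval -0.28 to 0.42, limma FDR = 0.932). For Ccl6, Cxcl12 and Ccl11 a change of 1 in either direction lies outside the interval.

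Ccl2, the chemokine most often tied to macrophage entry into obese fat, did not differ beyond its spread. It averaged 59.4 ± 28.98 TPM in AKO and 70.5 ± 42.0 TPM in WT (SD, n = 4 each), with a log2 change of -0.21 (95% interval -1.28 to 0.86, limma FDR = 0.934), so that a change of 1 downwards is still inside the interval. Leaving out WT mouse 3 or AKO mouse 8 turned the sign of its estimate, to 0.14 and 0.13. Its receptor gene Ccr2 averaged 22.4 ± 6.92 TPM in AKO and 27.8 ± 9.76 TPM in WT (SD, n = 4 each), with a log2 change of -0.27 (95% interval -0.98 to 0.44, limma FDR = 0.8798). Ccl7 and Ccl12 were also lower on average without passing, with log2 changes of -0.21 and -0.26 (limma FDR = 0.915 and 0.849).

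Members with a positive log2 change and a small p included Xcl1, Ccr7, Cxcl16, Ccl5 and Cxcl14. Xcl1 stood at 2.65, 3.65, 2.16 and 1.94 TPM in the AKO mice, against 0.50, 2.8, 0.82 and 1.03 TPM in the WT mice, with a log2 change of 0.73 (95% interval 0.065 to 1.39, limma FDR = 0.831) and an exact permutation p = 0.114. Ccr7 stood at 1.99, 2.12, 1.5 and 1.62 TPM in the AKO mice, against 1.05, 1.7, 0.86 and 1.0 TPM in the WT mice, with a log2 change of 0.39 (95% interval 0.033 to 0.75, limma FDR = 0.831) and an exact permutation p = 0.0857. In both, WT mouse 3 lay among the AKO mice and the other 3 WT mice lay below all of them. Xcl1 shares 19.1% of its longest transcript with Gm20743 on the opposite strand, and whether strand was used in counting is not stated, so reads of that stretch cannot be told apart. In all, 11 of the 37 tested members overlap an annotated gene on the opposite strand, Ccl2, Ccl6, Cxcl10, Cxcr6 and Ackr4 among them. Cxcl16 stood at 23.4, 21.7, 32.1 and 19.1 TPM in the AKO mice, against 15.8, 26.8, 10.6 and 15.7 TPM in the WT mice, with a log2 change of 0.504 (95% interval -0.085 to 1.09, limma FDR = 0.831), and it too has such a partner, Zmynd15. Its receptor gene Cxcr6 averaged 1.698 ± 0.861 TPM in AKO and 1.05 ± 0.8701 TPM in WT (SD, n = 4 each), with a log2 change of 0.43 (95% interval -0.27 to 1.12, limma FDR = 0.831). Ccl5, with AKO mouse 8 highest, averaged 45.3 ± 24.8 TPM in AKO and 28.4 ± 4.53 TPM in WT (SD, n = 4 each), with a log2 change of 0.53 (95% interval -0.197 to 1.25, limma FDR = 0.831). Without AKO mouse 8 its log2 change was 0.21. Cxcl14 stood at 17.5, 8.48, 20.3 and 14.5 TPM in the AKO mice, against 8.83, 18.4, 5.26 and 9.82 TPM in the WT mice, WT mouse 3 being second highest, with a log2 change of 0.54 (95% interval -0.28 to 1.36, limma FDR = 0.831). Of the 8 T cell markers 6 were tested, with positive log2 changes for 6 of 6, and the 4 NK cell markers had positive log2 changes for 4 of 4, with 0 past the threshold and 0 at an unadjusted p below 0.05. The B cell markers Cd79a and Cd79b were tested and positive (median log2 change 0.46), with 0 past the threshold and 1 at an unadjusted p below 0.05. Over all genes tested, 53.8% were positive and 4.75% were at an unadjusted p below 0.05. Cd79a stood at 1.62, 3.28, 2.34 and 3.65 TPM in the AKO mice, against 1.31, 1.66, 1.70 and 1.07 TPM in the WT mice. Cd79b stood at 4.04, 4.99, 4.01 and 3.82 TPM in the AKO mice, against 1.89, 3.72, 3.94 and 3.25 TPM in the WT mice. The groups overlap for both, with 3 of 4 AKO mice above all WT mice. Of the 5 dendritic cell markers, 4 were positive and 1 negative (median 0.15), with 0 at an unadjusted p below 0.05. The 4 mast cell markers were positive for 4 of 4 (median 0.75), with 1 at such a p. Of these 2 lists, 0 markers passed the threshold. None of these T, NK, B, dendritic and mast cell markers was at 0 in all mice, and their part in the Xcl1, Ccr7 and Ccl5 values was not tested. The smallest exact permutation p of any member was 0.0857, where these 4 and 4 mice allow 0.0286.

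The 6 members with a negative log2 change and the smallest p were Cxcl10, Ackr4, Ackr3, Ccl8, Ackr1 and Ccl12. Cxcl10 stood at 4.45, 3.85, 5.66 and 6.05 TPM in the AKO mice, against 7.21, 6.31, 5.61 and 7.06 TPM in the WT mice, with a log2 change of -0.34 (95% interval -0.67 to -0.014, limma FDR = 0.831). Each AKO mouse was below the WT median, and WT mouse 4 lay below 2 of the 4 AKO mice. Cxcl9, which is induced by the same interferon signal, averaged 18.6 ± 3.41 TPM in AKO and 17.04 ± 4.79 TPM in WT (SD, n = 4 each), with a log2 change in the other direction (0.14, limma FDR = 0.907). Ackr3 averaged 28.8 ± 5.07 TPM in AKO and 34.2 ± 5.48 TPM in WT (SD, n = 4 each), with a log2 change of -0.25 (95% interval -0.604 to 0.11, limma FDR = 0.831). Ackr4 averaged 1.54 ± 0.843 TPM in AKO and 2.55 ± 1.14 TPM in WT (SD, n = 4 each), with a log2 change of -0.498 (95% interval -1.21 to 0.21, limma FDR = 0.831). Ackr1 averaged 4.397 ± 1.26 TPM in AKO and 5.38 ± 0.971 TPM in WT (SD, n = 4 each), with a log2 change of -0.26 (95% interval -0.704 to 0.18, limma FDR = 0.831). Ackr2 averaged 3.51 ± 0.626 TPM in AKO and 3.25 ± 0.7104 TPM in WT (SD, n = 4 each). Ccrl2 averaged 13.2 ± 2.58 TPM in AKO and 10.4 ± 3.52 TPM in WT (SD, n = 4 each). These 2 had positive log2 changes, of 0.092 and 0.35 (limma FDR = 0.9201 and 0.831). Ccl8 averaged 63.8 ± 5.03 TPM in AKO and 89.1 ± 39.9 TPM in WT (SD, n = 4 each), with a log2 change of -0.38 (95% interval -1.01 to 0.26, limma FDR = 0.831). The 3 lymphatic endothelial markers (Prox1, Flt4 and Lyve1) summed to 31.7, 23.4, 15.6 and 29.1 TPM in the AKO mice, against 32.3, 32.6, 36.5 and 43.3 TPM in the WT mice. All 4 AKO mice lay below all 4 WT mice in this sum. The gap was narrow, from 31.7 TPM in AKO mouse 3 to 32.3 TPM in WT mouse 2. Among single genes tested, 2.44% did not overlap, and no such share was computed for sums of genes. The groups overlap for each of the 3 markers alone, with Lyve1 at 27.4 TPM in AKO mouse 3 and 26.55 TPM in WT mouse 2. Flt4 and Lyve1 were tested and negative, with 0 past the threshold and 1 at an unadjusted p below 0.05. Over all genes tested, 4.75% were at such a p and 53.8% were positive. The sum is mostly Lyve1, a gene that resident macrophages also use. WT mouse 5 was highest in the sum and also for Ccl8 and Ackr4. It was highest for 7 of the 37 tested members (18.9%), against 11.1% of all genes. WT mouse 4, second highest in the sum, was lowest for Ccl8 and second highest for Ackr4. The part of the lymphatic endothelial markers in the Ccl8 and Ackr4 values was not tested.

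**Figure D4:**
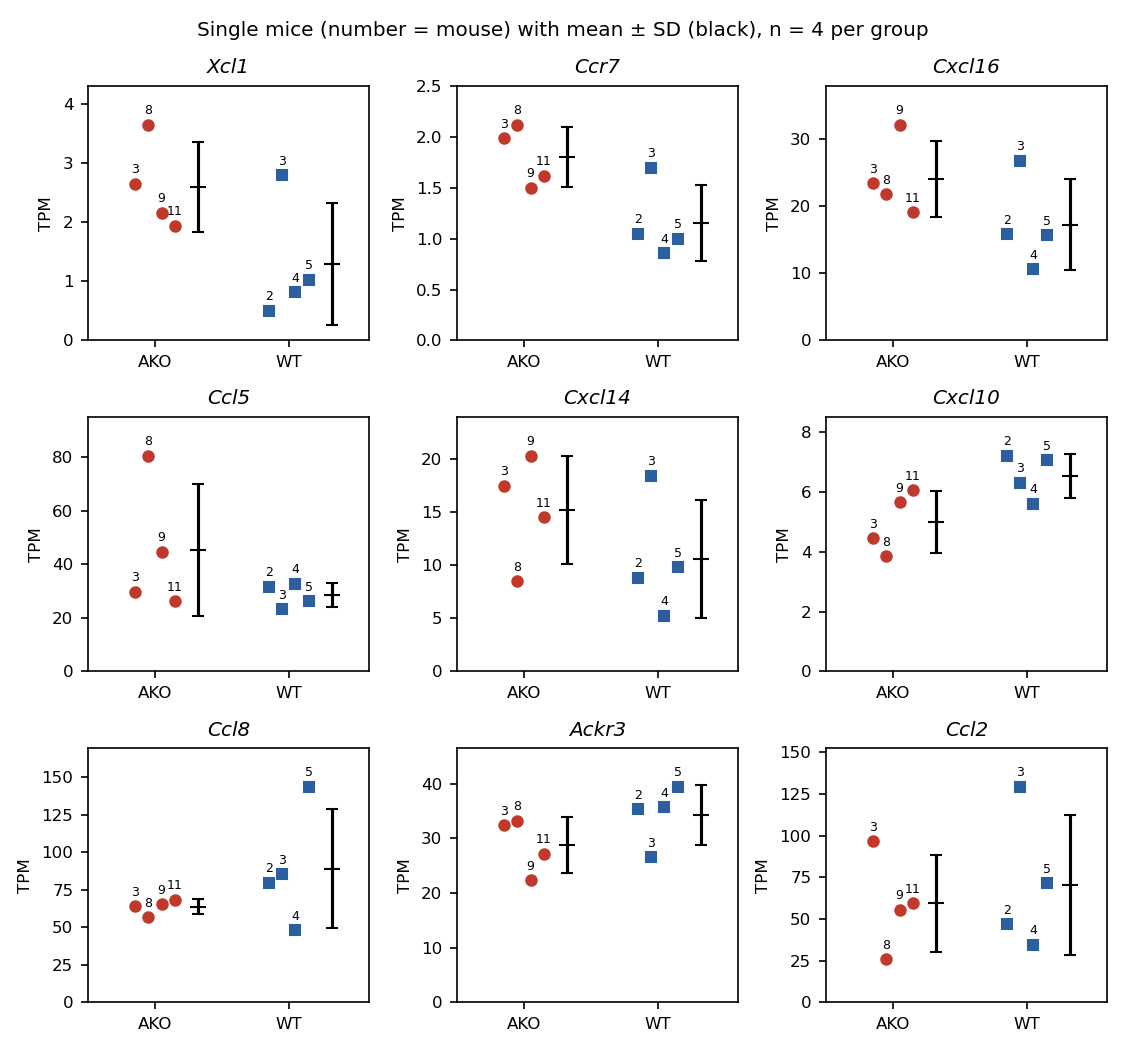
TPM of 9 members in each mouse, AKO (red circles) left of WT (blue squares), with the mouse number beside each point and the mean ± SD of 4 mice in black. WT mouse 3 lies among the AKO mice for Xcl1, Ccr7 and Cxcl16, and AKO mouse 8 is highest for Ccl5 at 80.5 TPM.

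These counts depended on single mice. Without WT mouse 3, 6 members had ranges that do not overlap, among them Xcl1, Ccr7, Cxcl16 and Ccl3 with AKO above and Ackr3 with AKO below, where 11.4% of all genes did not overlap. Without WT mouse 4, 3 members did not overlap, with AKO below for Ccl8 and Cxcl10 and above for Cxcr6, where 4.0% of all genes did not. The members at an unadjusted p below 0.05 numbered 7 without WT mouse 3 (13.7% of all genes) and 6 without AKO mouse 11 (6.78%). They numbered 1 without AKO mouse 8 (3.92%), and 0 without AKO mouse 3 (3.33%), WT mouse 2 (5.55%) or WT mouse 5 (3.03%). With no filter on low values, 1 of 55 members with any value did not overlap, Cxcr5 with AKO above, where 1.89% of all genes did not. Cd79a and Cd79b, given above, also had higher AKO means, and the part of B cell markers in the values of Cxcr5, a B cell receptor, was not tested.

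Macrophage markers had higher AKO means, without a call. Over all genes tested, 53.8% had a positive log2 change and 4.75% an unadjusted p below 0.05. All 8 markers of lipid-associated macrophages (Trem2, Gpnmb, Spp1, Itgax, Cd9, Ctsk, Mmp12 and Lgals3) had positive log2 changes, and 0 of them passed an FDR of 0.05 in limma (3 at an unadjusted p below 0.05). Their summed TPM was 6298, 4144, 7482 and 3691 in AKO mice 3, 8, 9 and 11, against 3123, 6269.8, 899.7 and 2661 in WT mice 2, 3, 4 and 5. WT mouse 3 lay within the AKO range and WT mouse 4 far below all other mice. The 8 general macrophage markers summed to 3264 to 5742 TPM in AKO and 2063 to 4788 TPM in WT, with positive log2 changes for 8 of 8. Neither list held a marker at 0. The part of these markers in the differences of Cxcl16 and Ccl9 was not tested. The 5 monocyte markers did not share that direction, with 2 positive and 3 negative log2 changes and sums of 214 to 399.9 TPM in AKO and 239 to 376 TPM in WT. Fn1 made most of these sums, at 183 to 355 TPM in AKO and 211 to 327 TPM in WT.

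Genes that work beside the chemokines were also without a call. Pf4, a platelet and macrophage CXC chemokine whose symbol lies outside the pattern, lay below Ccl6 and Ccl9 in each mouse. It stood at 199.6, 128, 194 and 131 TPM in the AKO mice, against 128, 192, 91.2 and 177 TPM in the WT mice. Its values spread more widely than those of Cxcl12 (105 to 169 TPM) and Ccl11 (109 to 162 TPM). The log2 change of Pf4 was 0.18 (95% interval -0.405 to 0.76, limma FDR = 0.907). Cx3cr1, the fractalkine receptor, averaged 1.42 ± 0.493 TPM in AKO and 1.87 ± 1.28 TPM in WT (SD, n = 4 each), and Ppbp and the decoy receptor gene Gpr182 were tested as well, with 2 of these 4 positive and 2 negative. Of 26 genes of receptor signalling, 21 were positive and 5 negative (median log2 change 0.12), where 53.8% of all genes were positive. Among these 26, 0 passed the threshold in limma and 0 were at an unadjusted p below 0.05, where 4.75% of all genes were. The smallest p belonged to Arrb2, which encodes an arrestin that switches receptors off and to the phospholipase gene Plcb2. Arrb2 averaged 51.5 ± 7.28 TPM in AKO and 41.2 ± 7.88 TPM in WT (SD, n = 4 each), with a log2 change of 0.33 (95% interval -0.027 to 0.68, limma FDR = 0.831). Plcb2 averaged 2.48 ± 0.463 TPM in AKO and 1.81 ± 0.513 TPM in WT (SD, n = 4 each).

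Of 13 tested genes of chemokine presentation and cleavage, 10 were positive and 3 negative (median 0.17), with 0 past the threshold and 2 at an unadjusted p below 0.05 (4.75% of all genes were that low, and 53.8% positive). These 2 were Mmp2, a gelatinase that trims Ccl7 and Cxcl12, at 105, 83.4, 119.7 and 73.2 TPM in the AKO mice, against 66.9, 83.3, 38.2 and 40.5 TPM in the WT mice, with a log2 change of 0.78 (95% interval 0.17 to 1.39, limma FDR = 0.831), and Mmp14, its membrane-bound activator. Mmp14 stood at 81.9, 66.99, 101 and 50.2 TPM in the AKO mice, against 47.1, 71.3, 34.5 and 41.2 TPM in the WT mice, with a log2 change of 0.62 (95% interval 0.031 to 1.22, limma FDR = 0.831). The 5 fibroblast and progenitor markers (Pdgfra, Dcn, Col1a1, Pi16 and Dpp4) were positive for 5 of 5 (median 0.31), with 0 past the threshold, 1 at an unadjusted p below 0.05 and none at 0. They summed to 1397, 1303, 1305 and 997 TPM in the AKO mice, against 936, 1210.4, 928 and 955 TPM in the WT mice, and their part in the Mmp2 and Mmp14 values was not tested. Of 14 tested genes of leukocyte adhesion, 11 were positive and 3 negative (median 0.17), with 0 past the threshold and 0 at an unadjusted p below 0.05. Itga4, the integrin subunit that binds Vcam1, averaged 9.05 ± 2.28 TPM in AKO and 6.58 ± 1.57 TPM in WT (SD, n = 4 each) and Icam1 19.2 ± 2.62 TPM in AKO and 16.2 ± 2.11 TPM in WT (SD, n = 4 each). Of 15 cytokines that induce chemokines, 4 were tested and positive (median 0.14), with 0 past the threshold and 0 at an unadjusted p below 0.05. Ltb (lymphotoxin beta) averaged 4.04 ± 1.85 TPM in AKO and 2.498 ± 1.05 TPM in WT (SD, n = 4 each). Csf1, the macrophage growth factor, averaged 28.7 ± 4.45 TPM in AKO and 26.1 ± 3.97 TPM in WT (SD, n = 4 each). Il1b, Il6 and Ifng were among the 11 that did not reach 1 TPM in 4 mice.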

How the data were processed

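RNA-seq of eWAT from 8 mice (4 AKO, 4 WT) was used. The deposited values are TPM, given by the authors as 1 table per mouse with 152298 rows in steps of 0.01. The labels' protocols name Trizol extraction and the Illumina TruSeq kit. The tools named per the submitters' processing notes are HISAT2 and DESeq2, with mm9. For the quantifier: not given in the sources used here. Rows were summed per gene identifier, and the gene name table gave symbols to 55141 of the 55487 identifiers. Gene type, overlaps (from gene start and end positions) and shared stretches (BLAST+ 2.17.0, 95% identity) come from GENCODE M21.

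The 14172 genes that reached 1 TPM in 4 or more mice were fitted with limma 3.58.1 (R 4.3.3, mean-variance trend) on log2(TPM + 1), with no covariate. Benjamini-Hochberg adjustment ran over all of them, with a threshold of 0.05, and the fit was tested on simulated data. Exact permutation tests are two-sided over 70 arrangements of the mean log2 value. The series' design text speaks of separate mice, and p-values measure the spread among these animals. The members and lists were chosen with earlier results of these data known. Of 17 adhesion symbols, 16 matched.

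Members named with values per mouse or means are the 5 ligands and 5 receptors with the highest mean TPM, the 6 tested members with the smallest p in each direction, the tested atypical receptors, and Ccl2, Ccr2, Cxcl12 and Cxcr4. One member that entered the counts is not reported here. For each accessory list the 2 tested genes with the smallest p are named, and others are given by range or were chosen after their values were seen. Alternatives were the highest row per gene, a pseudocount of 0.1, no filter, median-ratio scaling, a robust spread and leaving out each mouse.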

Additional observations from a re-analysis of the deposited data

How the results depend on the processing

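Under each of the 13 alternatives (5 settings and 8 mice left out), 0 chemokine family members and 0 genes of the accessory lists passed an FDR of 0.05, and the smallest FDR of a named member was 0.323, without WT mouse 3. The count of all genes past the threshold, 4 as reported, ran from 1 to 5 when a mouse was left out. Members whose groups do not overlap numbered 0 as reported, 0 to 6 when a mouse was left out and 1 with no filter on low values. The median log2 change of the tested members, 0.071 as reported, ran from 0.028 to 0.14 when a mouse was left out. Of the 21 members picked by the naming rule, 16 kept their sign throughout. The log2 change ran from -0.49 to 0.14 for Ccl2, from -0.18 to 0.18 for Ccl6, from -0.0035 to 0.195 for Ccl11, from -0.092 to 0.14 for Cxcl12 and from -0.036 to 0.19 for Ackr2 when a mouse was left out. Among members that kept their sign, the estimates moved by over 1.5 times when a mouse was left out for Ccl8 (-0.63 to -0.11), Ccr2 (-0.55 to -0.080), Ccl12 (-0.43 to -0.13), Ackr4 (-0.67 to -0.24), Ackr3 (-0.36 to -0.13), Ackr1 (-0.38 to -0.095), Cxcr4 (-0.26 to -0.039), Ccl9 (0.12 to 0.65), Ccl5 (0.21 to 0.74), Cxcl14 (0.29 to 0.83), Cxcl16 (0.31 to 0.73) and Ccrl2 (0.17 to 0.498). Settings also moved the estimates of members that kept their sign. With the highest row per gene the log2 change was smaller in size for Ccrl2 (0.092), Ccl9 (0.25) and Cxcr4 (-0.075). With a pseudocount of 0.1 it was larger in size for Ccr7 (0.64) and Ackr4 (-0.81), and above 1 for Xcl1. The sign turned under a setting for Ackr2 (-0.067 with the highest row per gene) and Cxcl12 (-0.0017 with median-ratio scaling). The cause of these changes of sign was not tested beyond the mouse or setting concerned. No paired analysis was possible because the groups share 1 mouse number (3), on different animals. TPM holds no depth, so counting error behind members near 1 TPM is unknown.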

Other observations

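Ccl21a differed between mice by more than most members and in an order that the genotype does not follow. It stood at 20.96, 6.83, 15.6 and 30.4 TPM in the AKO mice, against 8.84, 45.8, 41.2 and 9.89 TPM in the WT mice, with WT mice 3 and 4 highest. The same 2 mice had the highest summed TPM of 4 epididymal epithelium markers, at 4.35 in WT mouse 3 and 7.57 in WT mouse 4, against at most 0.51 in AKO mice and at most 0.060 in WT mice 2 and 5. Lcn5 made most of that sum in WT mouse 3 and Crisp1 in WT mouse 4, and Spag11b was listed at 0 in all 8 mice. Prox1, a lymphatic endothelial marker, was also highest in WT mouse 4 (0.38 TPM), AKO mouse 11 (0.29 TPM) and WT mouse 3 (0.27 TPM), against at most 0.16 TPM in the other mice. It stayed below 1 TPM and was not tested, and the other markers of its list had other orders. Flt4 was highest in WT mouse 4 (6.75 TPM) and WT mouse 2 (5.60 TPM), with 4.17 TPM in WT mouse 3. Lyve1 was highest in WT mouse 5 (38.4 TPM). The part of lymphatic vessels, or of tissue from outside the fat pad, in the Ccl21a values was not tested.

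Ligand and receptor levels did not follow one order. Ccr3 had a mean of 0.761 TPM, while its ligands Ccl5, Ccl7, Ccl11 and Ccl24 summed to 185 to 271 TPM in AKO mice and 181 to 240.4 TPM in WT mice. Ccr8 was at or below 0.12 TPM in each mouse, while Ccl8 was among the 5 most abundant ligands.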
